A study of Mus musculus with 6 samples.

Results

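The TNF superfamily is a family of cytokines and of the receptors that bind them. Its genes were taken from the RNA of 6 mouse tumors by their symbols, as those that start with Tnfsf or Tnfrsf together with a short list of members under other names, such as Ltb, Ltbr, Ngfr and Eda. Of the 13730 genes measured, 20 were members, 7 ligands and 13 receptors. RefSeq lists 47 genes with such symbols on GRCm38.p6, and the other 27, among them Tnfrsf4 (OX40), Tnf and Cd40, were not analysed here. The label of the family could therefore not be checked on Tnfrsf4, and it rests on the symbols. All tumors grew from C0321, a single mouse TNBC cell line from mice with a targeted, conditional Lunatic Fringe knockout on the FVB background. Cells in Matrigel and PBS were placed in the mammary fat pad of a syngeneic female FVB mouse aged 6 to 10 weeks. After a palpable mass appeared, 3 mice were dosed by mouth with sulindac sulfide (SS), 60 mg/kg each day for 14 days, and 3 mice were controls. The drug is a sulfate in the sample labels and a sulfide in the paper, and the control is saline in the deposited design and vehicle in the paper. All 6 mice were immunocompetent, so each library holds RNA of tumor cells and of host cells.

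Ligands of this family are mostly trimers anchored in the membrane, and they cluster receptors with cysteine-rich repeats. Receptors with a death domain can recruit adaptors that lead to caspase activation, other receptors recruit TRAF proteins and lead to NF-kB and kinase signaling, and decoy receptors bind ligand without a full signaling tail. In tumors, the family is known for killing of target cells, for inflammation, and for costimulation of T-cells. SS is a metabolite of the NSAID sulindac, and the study asked how it changed the transcriptome of these tumors.

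Totals ranged from 12314424 to 24441553 counts in control tumors and from 8468948 to 13696699 counts in SS tumors. Levels are given in CPM, in which counts are divided by the library total after TMM scaling, and 3 counts, the floor used for a gene near 0, correspond to between 0.123 and 0.358 CPM. Markers of other tissue differed between tumors. The 5 skeletal muscle markers (Acta1, Ckm, Myh4, Myh1 and Tnnt3) summed to between 1090 and 10800 CPM in control and between 325 and 22500 CPM in SS tumors. Of 14 T-cell markers, 6 had an entry, with sums from 19.1 to 93.4 CPM in control and from 17.2 to 40.1 CPM in SS tumors, highest in control tumor 1. The 6 adipocyte markers summed to between 0.041 and 47.3 CPM in control and between 0.676 and 19.7 CPM in SS tumors. Of 7 B-cell markers, Pax5 and Cd79a had an entry, at 0 in every SS tumor and summing to 15.2 CPM in control tumor 1. Of 10 dendritic cell markers, 8 had an entry, with sums from 78.4 to 137 CPM in control and from 134 to 221 CPM in SS tumors. These sums overlapped between groups. Without Itgax, the one dendritic cell marker with groups apart, they also overlapped, at 27.5 to 70.5 CPM in control and 44.3 to 61.4 CPM in SS tumors. The 8 macrophage markers summed to between 722 and 865 CPM in control and between 763 and 953 CPM in SS tumors. Among the 6 epithelial markers Krt8 was at 417 to 544 CPM, while Epcam was near 0, at 0.041 to 2.98 CPM. Krt18, another of the 6, was at 91.8, 98.1 and 80.4 CPM in control and at 70.0, 59.5 and 61.9 CPM in SS tumors, with groups apart and a log2 fold change of -0.50 (unadjusted p = 0.00387 in edgeR's test).

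Of the 20 members, 9 had enough counts to pass edgeR's filter on low counts and were tested. Passing needed enough counts in any 3 of the 6 tumors, so the 9 do not stand for all members. In edgeR's quasi-likelihood test, 0 of the 9 had a Benjamini-Hochberg adjusted p under 0.05, as was the case for 0% of the 10902 genes tested. DESeq2 called 35 genes at that threshold, none of them a member, but its own filter on mean counts left an adjusted p for 1 of the 9 members, Tnfrsf21, at 0.948. At an unadjusted p under 0.05 edgeR's test gave 693 genes and 1 member, Tnfrsf1a, lower in SS tumors. That is 11.1% of the 9, beside 6.36% of all genes tested, or 3.16% counted as lower only. Groups did not overlap for 1 of the 9 tested members, again Tnfrsf1a, and for no other of the 20, beside 12.9% of all genes tested. The log2 fold change was below 0 for 6 of the 9 members, or 66.7%, and for 50.2% of all genes. This majority turned with limma-voom and with the T-cell marker score as a covariate, where 5 of the 9 were above 0. The median over the 9 members was -0.12 on the log2 scale, beside -0.001 over all genes. By role, 3 of 4 tested ligands, 1 of 2 death domain receptors, 1 of 2 TRAF-binding receptors and the single decoy receptor were below 0.

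**Figure D1:**
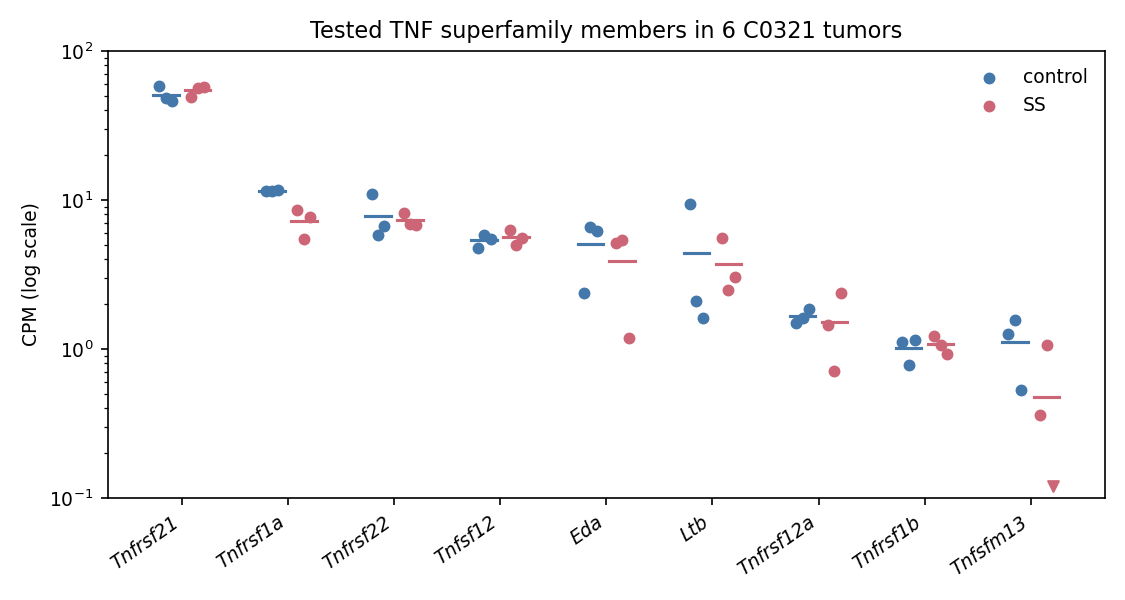
CPM on a log axis for the 9 tested members, in order of mean level, with a point for each of 3 control (blue) and 3 SS (red) tumors and a line at each group mean; the triangle at the bottom marks a tumor at 0 counts. The groups are apart for Tnfrsf1a, at 11.4 to 11.6 CPM against 5.48 to 8.49 CPM, and overlap for the other members.

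Tnfrsf1a encodes TNFR1, the receptor with a death domain through which TNF acts on most cell types. It lies on chromosome 6 from 125349723 to 125362483 (GRCm38), has 10 exons in a transcript of 2156 nt, and had a single transcript in the table. It was at 11.4, 11.4 and 11.6 CPM in control tumors 1, 2 and 3, and at 8.49, 5.48 and 7.69 CPM in SS tumors 1, 2 and 3. Every SS tumor lay below every control tumor, with SS tumor 2 the lowest. The mean was 11.5 ± 0.128 CPM (SD, n = 3) in control against 7.22 ± 1.56 CPM (SD, n = 3) in SS-treated tumors, an exact two-sided permutation p of 0.1, the smallest that 3 against 3 tumors can give. On the log2 scale the fold change was -0.66 (standard error, SE, 0.22), or 0.633 times the control level. Its p in edgeR's quasi-likelihood test was 0.0188 before and 0.771 after adjustment. DESeq2's Wald test gave an unadjusted p of 0.024 and no adjusted p. In a tumor, fewer cells that express a gene and less of its RNA per cell cannot be told apart, for this gene and for those that follow.

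The depth behind these values was modest. Control tumors held 144, 232 and 283 counts of Tnfrsf1a and SS tumors 117, 46 and 91 counts. The exact Poisson 95% interval, which covers counting error only, ran from 9.60 to 13.4 CPM in control tumor 1 and from 4.02 to 7.32 CPM in SS tumor 2. For SS tumor 1 it ran from 7.02 to 10.2 CPM, and so reached into that of control tumor 1. Counting alone gives an SD of between 0.690 and 0.949 CPM in the control tumors, above the 0.128 CPM seen between them. The 3 controls thus differed by less than counting error alone would give. With SS tumor 2 left out the log2 fold change was -0.50 (unadjusted p = 0.0416 in edgeR's test), and with SS tumor 1 left out it was -0.80 (unadjusted p = 0.0148 in edgeR's test).

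Skeletal muscle markers summed to 5360, 10800 and 1090 CPM in control tumors 1, 2 and 3, and to 325, 22500 and 12100 CPM in SS tumors 1, 2 and 3. Epithelial markers did not share an order over SS tumors, as Krt18 was lowest in SS tumor 2, whereas Krt8, Cdh1, Epcam and Krt14 were highest there. With the muscle marker score as a covariate, the log2 fold change of Tnfrsf1a was -0.67 (unadjusted p = 0.0189 in edgeR's test), and with the T-cell marker score it was -0.66 (unadjusted p = 0.0296 in edgeR's test). Both covariates were chosen after the data had been seen. Beyond these fits, the part of other cells in the level of Tnfrsf1a was not tested.

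**Figure D2:**
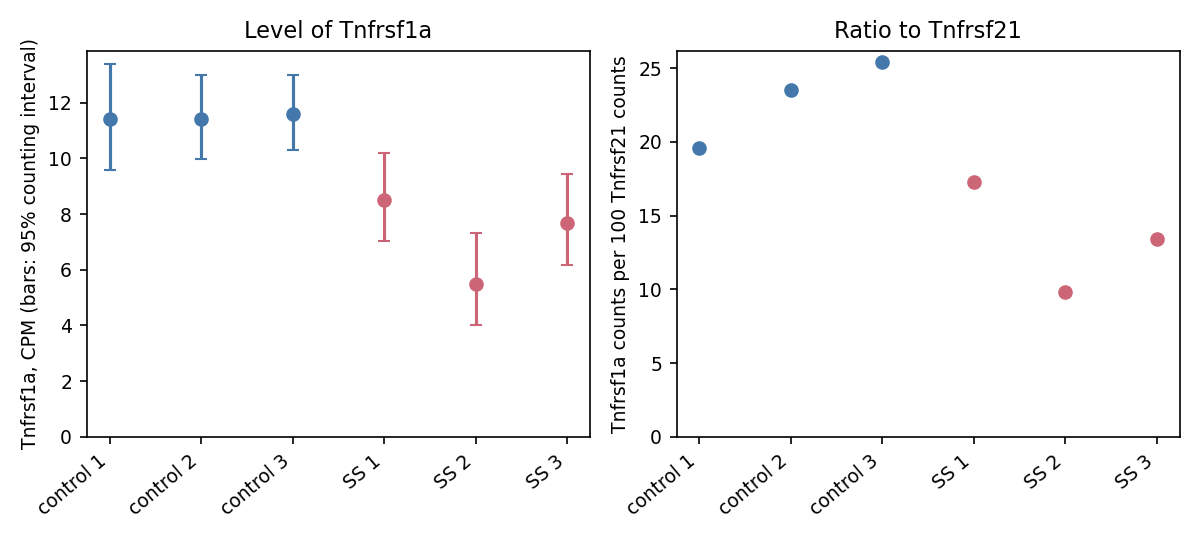
Left, CPM of Tnfrsf1a in each of 3 control (blue) and 3 SS (red) tumors with exact Poisson 95% intervals for counting error; right, counts of Tnfrsf1a per 100 counts of Tnfrsf21 in the same tumors. Control tumors lie at 11.4 to 11.6 CPM and 19.6 to 25.4 per 100, and SS tumors at 5.48 to 8.49 CPM and 9.81 to 17.3 per 100.

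Tnfrsf21 encodes death receptor 6 and was the member with the highest level. It lies on chromosome 17 from 43016555 to 43089188. Its counts made up from 55.1% to 65.0% of all counts of the 20 members in each tumor. It was at 58.1, 48.5 and 45.7 CPM in control and at 49.1, 55.9 and 57.4 CPM in SS tumors. The groups overlapped, at 50.8 ± 6.5 CPM (SD, n = 3) in control against 54.1 ± 4.40 CPM (SD, n = 3) in SS-treated tumors, with a log2 fold change of 0.09 (SE 0.13). The ratio of both receptors within each tumor does not depend on how the libraries were scaled, but it uses the same counts of Tnfrsf1a and is no separate measurement. Per 100 counts of Tnfrsf21 there were 19.6, 23.5 and 25.4 counts of Tnfrsf1a in control and 17.3, 9.81 and 13.4 in SS tumors. The means of the log2 ratios differed by -0.79, a difference to which the level of Tnfrsf21 adds.

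The 250 bases before and 50 bases after the start of these 2 genes are shown because they are the death domain receptors with the most counts, one with groups apart and one with groups that overlapped. They are from RefSeq on GRCm38.p6, on the plus strand, at chr6:125349473-125349772 for Tnfrsf1a and chr17:43016305-43016604 for Tnfrsf21. Capitals mark matches to any of the motifs searched on both strands, which were the GC box GGGCGG, the ETS core CCGGAA, the TATA box TATAAA and the NF-kB consensus, searched without regard to overlaps.
Tnfrsf1a: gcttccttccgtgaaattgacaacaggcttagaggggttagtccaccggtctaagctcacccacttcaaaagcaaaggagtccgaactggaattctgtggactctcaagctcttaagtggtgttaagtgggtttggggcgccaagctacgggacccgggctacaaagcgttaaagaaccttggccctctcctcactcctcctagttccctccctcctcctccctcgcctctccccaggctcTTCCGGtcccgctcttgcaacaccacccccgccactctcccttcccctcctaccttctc
Tnfrsf21: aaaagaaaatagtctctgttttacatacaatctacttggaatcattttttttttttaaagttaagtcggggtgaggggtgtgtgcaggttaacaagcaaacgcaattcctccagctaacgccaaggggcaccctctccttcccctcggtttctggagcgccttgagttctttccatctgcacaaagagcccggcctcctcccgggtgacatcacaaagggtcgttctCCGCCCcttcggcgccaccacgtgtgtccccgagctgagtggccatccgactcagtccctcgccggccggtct

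Tnfrsf1a held 1 match, to the ETS core on the minus strand from 9 to 4 bases before the start, and Tnfrsf21 held 1 match, to the GC box on the minus strand from 23 to 18 bases before the start. RefSeq's table held 20 promoters of 17 of the members. The GC box was found in 13 of these 20 promoters and in 35.7% of all 32851 promoters, and the ETS core in 5 of the 20 and in 14.9% of all. The NF-kB consensus was found for Ltb, Tnfrsf25 and Tnfrsf9 and in 8.5% of all promoters, and the TATA box for Tnfrsf23 and Tnfsf11 and in 13.6% of all. These are matches of letters and say nothing of which factors bind.

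The other receptors with a death domain did not pass the filter on low counts and were not tested. Ngfr, the p75 receptor for neurotrophins, had 15, 6 and 4 counts in control and 0, 2 and 13 counts in SS tumors. Tnfrsf25, the death receptor DR3, had 0, 2 and 4 counts in control and 6, 0 and 8 counts in SS tumors. For both genes the groups overlapped, and no difference was detectable at this depth.

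Among receptors that bind TRAF proteins, Tnfrsf1b encodes TNFR2, the second receptor of TNF. It was at 1.11, 0.786 and 1.15 CPM in control and at 1.23, 1.07 and 0.930 CPM in SS tumors, with a log2 fold change of 0.09 (SE 0.48). The groups overlapped, and the value rests on 9 to 28 counts per tumor. Per length, the RNA of Tnfrsf1a was above that of Tnfrsf1b, at 2.54 to 5.39 against 0.206 to 0.323 CPM per kb of transcript. These are RNA levels and do not give the amount of either receptor protein. Tnfrsf12a encodes Fn14, the receptor of TWEAK, and was at 1.5, 1.62 and 1.85 CPM in control and at 1.45, 0.715 and 2.37 CPM in SS tumors. SS tumors held both the lowest and the highest value, so the groups overlapped, and the log2 fold change was -0.12 (SE 0.53).

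Ltbr, the receptor of lymphotoxin, lies 35.8 kb before Tnfrsf1a on chromosome 6 and had 4, 7 and 2 counts in control and 4, 2 and 0 counts in SS tumors. Tnfrsf19, also called TROY, had 0, 33 and 18 counts in control and 1, 2 and 7 counts in SS tumors, so that its control tumors ranged from 0 to 1.62 CPM. Tnfrsf11a, the receptor RANK, had 3, 10 and 3 counts in control and 6, 3 and 3 counts in SS tumors. Tnfrsf9, the T-cell costimulatory receptor 4-1BB, had 5 counts in control tumor 2 and 9 counts in SS tumor 1, and 0 counts in the other 4 tumors. None of these 4 genes had groups that were apart, and none was tested.

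Of the decoy receptors, Tnfrsf22 and Tnfrsf23 are mouse decoys for TRAIL that lie 16.1 kb apart on chromosome 7. Tnfrsf22 was at 10.9, 5.85 and 6.65 CPM in control and at 8.13, 6.92 and 6.76 CPM in SS tumors. Control tumor 1 was highest, the groups overlapped, and the log2 fold change was -0.09 (SE 0.29), or 0.22 without control tumor 1. Tnfrsf23 had between 0 and 3 counts in each tumor. Both are close copies, whose reads could be split between them, and their sum was 7.88 ± 2.71 CPM (SD, n = 3) in control against 7.49 ± 0.698 CPM (SD, n = 3) in SS-treated tumors. Tnfrsf11b encodes osteoprotegerin, the soluble decoy for RANKL, and had 1, 2 and 8 counts in control and 0, 0 and 1 counts in SS tumors. It was at or under the floor of 3 counts in every tumor except control tumor 3.

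Among the ligands, Tnfsf12 encodes TWEAK and was at 4.74, 5.85 and 5.46 CPM in control and at 6.24, 5.01 and 5.58 CPM in SS tumors, with groups that overlapped. Its log2 fold change was 0.07 (SE 0.25). Its receptor Tnfrsf12a is given above, and for neither partner were the groups apart. Tnfsf12 shares its locus on chromosome 11 with Tnfsf13, the gene of APRIL, and with Tnfsfm13, a read-through transcript of both, so that reads of these 3 genes could be split between them. Tnfsf13 had 0 counts, after rounding, in 5 tumors and 13 counts in SS tumor 3. Tnfsfm13 was at 1.26, 1.57 and 0.534 CPM in control and at 0.363, 1.07 and 0 CPM in SS tumors. SS tumor 3, the tumor where Tnfsf13 had its counts, was the one where Tnfsfm13 was at 0. The log2 fold change of Tnfsfm13 was -1.29 (SE 1.04), with overlap between the groups, and it ran from -2.53 to -0.67 with each tumor left out. Summed over the 3 genes, the locus was at 6.01, 7.42 and 5.99 CPM in control and at 6.60, 6.08 and 6.68 CPM in SS tumors, with a difference of 0.002 between the means of log2 CPM.

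Ltb encodes lymphotoxin beta, a ligand made mostly by lymphocytes. It lies on chromosome 17 from 35194507 to 35196305 and was at 9.41, 2.11 and 1.60 CPM in control and at 5.52, 2.50 and 3.04 CPM in SS tumors. Control tumor 1 was highest and SS tumor 1 second, and the groups overlapped. The log2 fold change was -0.22 (SE 0.70, adjusted p = 0.967 in edgeR's test). The value depended on control tumor 1, for without it the log2 fold change was 1.00 (unadjusted p = 0.0882 in edgeR's test). Cd3e, a chain of the T-cell receptor complex, was at 45.8, 12 and 7.63 CPM in control and at 19.9, 12.6 and 4.06 CPM in SS tumors. Lck, a kinase of T-cells, was at 34.7, 7.72 and 8.82 CPM in control and at 12.6, 10.7 and 7.35 CPM in SS tumors. Control tumor 1 and SS tumor 1 held the highest levels of Ltb, Cd3e and Lck. These T-cell genes were chosen from the list after their values had been seen, and Ctla4, another T-cell marker, was at 7.90, 2.85 and 1.81 CPM in control and at 4.86, 5.01 and 4.99 CPM in SS tumors, so that SS tumor 1 did not stand out for it. With the T-cell marker score as a covariate, chosen after the data had been seen, the log2 fold change of Ltb was 0.55 (unadjusted p = 0.207 in edgeR's test). Beyond that, the part of T-cell content in the level of Ltb was not tested.

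**Figure D3:**
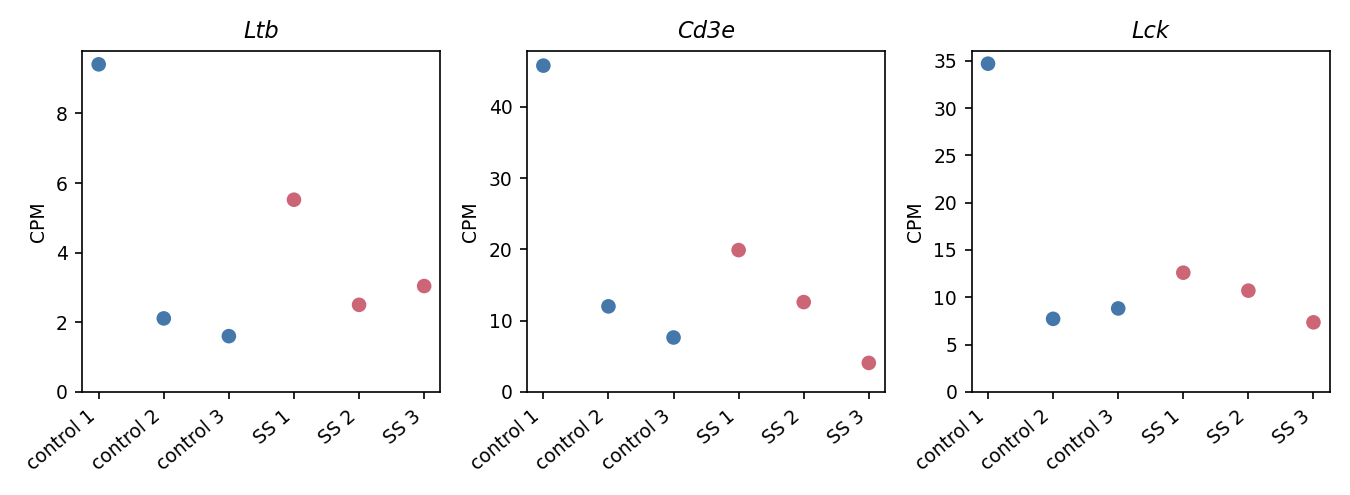
CPM of Ltb and of the T-cell genes Cd3e and Lck in each of 3 control (blue) and 3 SS (red) tumors, on linear axes from 0. Control tumor 1 is highest in each panel, at 9.41, 45.8 and 34.7 CPM, and SS tumor 1 second, at 5.52, 19.9 and 12.6 CPM.

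Eda encodes ectodysplasin A, a ligand known for the development of hair and glands. It was at 2.37, 6.54 and 6.16 CPM in control and at 5.15, 5.37 and 1.18 CPM in SS tumors, with a log2 fold change of -0.38 (SE 0.61). SS tumor 3 was lowest and the groups overlapped. Without SS tumor 3 the log2 fold change was 0.06. Tnfsf11, the gene of RANKL, had 3, 0 and 0 counts in control and 5, 5 and 0 counts in SS tumors. Its receptor Tnfrsf11a and its decoy Tnfrsf11b had at most 10 counts in any tumor, so that no balance between them could be read at this depth. Tnfsf8, the CD30 ligand, had 0, 8 and 1 counts in control and 0, 0 and 4 counts in SS tumors.

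**Figure D4:**
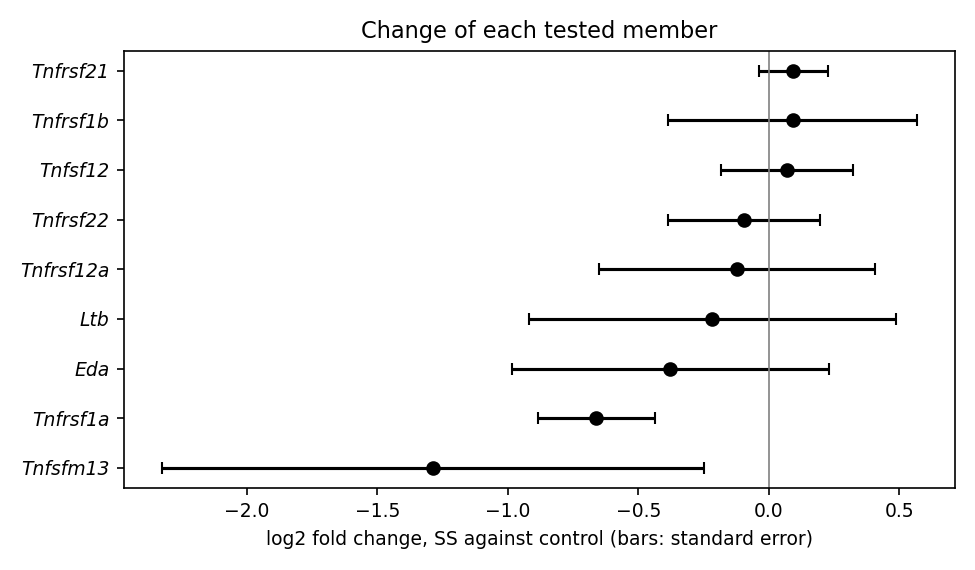
Log2 fold change of SS against control tumors for the 9 tested members, with bars for the standard error of edgeR's fit. The bars of Tnfrsf1a, at -0.66 (SE 0.22), and of Tnfsfm13 do not reach 0, and Tnfsfm13, at -1.29, has the widest bar, with a standard error of 1.04.

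In all, 11 members were not tested. They had between 11 and 61 counts summed over the 6 tumors, none had more than 3 counts in every tumor, and 10 of the 11 were at 0 in at least 1 tumor. The summed level of the 20 members was 91.1 ± 10.6 CPM (SD, n = 3) in control against 87.8 ± 1.60 CPM (SD, n = 3) in SS-treated tumors. Without Tnfrsf21 it was 40.3 ± 4.15 CPM (SD, n = 3) and 33.7 ± 4.67 CPM (SD, n = 3), and without Tnfrsf1a as well it was 28.8 ± 4.25 CPM (SD, n = 3) and 26.4 ± 3.51 CPM (SD, n = 3). These sums all overlapped between groups.

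Levels of different genes were compared per kb of transcript, with lengths from GENCODE for all 26 transcripts of the 20 members. Tnfrsf21 was highest, at 12.6 to 16.0 CPM per kb, and did not overlap with any other member. It was followed by Tnfrsf1a at 2.54 to 5.39, Tnfsf12 at 3.29 to 4.33, Ltb at 1.38 to 8.11 and Tnfrsf22 at 1.75 to 3.41 CPM per kb, whose ranges over the 6 tumors overlapped from each to the next. This order is that of means over both groups. Tnfrsf1a was above Tnfsf12 in every control tumor, at 5.28, 5.29 and 5.39 against 3.29, 4.09 and 3.8 CPM per kb. It was below Tnfsf12 in every SS tumor, at 3.94, 2.54 and 3.57 against 4.33, 3.51 and 3.89 CPM per kb. The SS values rest on 117, 46 and 91 counts of Tnfrsf1a and 86, 42 and 66 of Tnfsf12. Counting error alone is 9.25% to 15.4% of each of these counts. Reads of Tnfsf12 could also be split with its locus, and the order of both genes was not tested.

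For 17 of the 20 members the table held 1 transcript. For Eda, Tnfrsf22 and Tnfsfm13 it held several, and how reads shared by transcripts were divided is not given in the sources used here. Tnfrsf22 had exactly 62.8% of its counts on 1 transcript and 37.2% on the other in 5 of the 6 tumors, a ratio of 1.69 in each, and a ratio of 9.53 in SS tumor 3. Of the 5 transcripts of Eda, NM_001177940 and NM_010099 stood in a ratio of 1.27 in each of the 5 tumors where they had counts. In SS tumor 2 all counts of Eda were on another transcript, NM_001177937, which held 85.5% in control tumor 1 and at most 2.55% in the other 4 tumors. All tests above were therefore run on sums over each gene. The per-length levels of Eda, Tnfrsf22 and Tnfsfm13 depend on this division. The lowest per-length level of Tnfrsf22, 1.75 CPM per kb, was that of SS tumor 3.

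**Figure D5:**
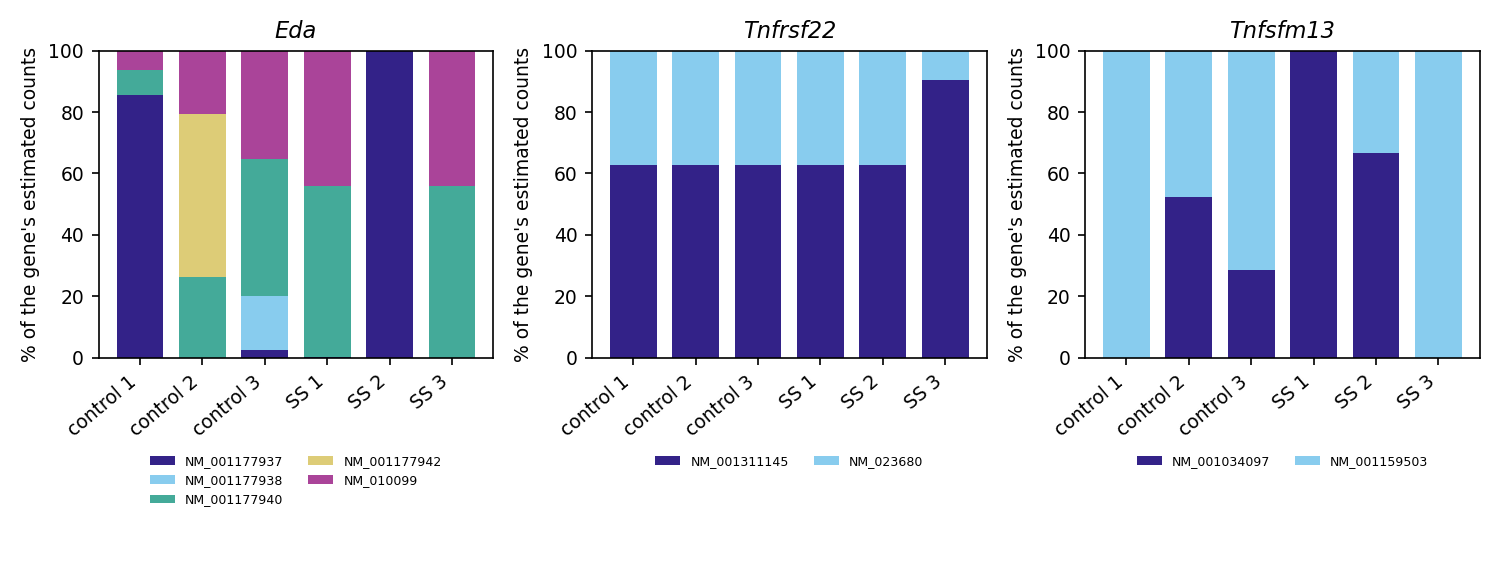
Percent of the estimated counts of Eda, Tnfrsf22 and Tnfsfm13 on each RefSeq transcript (colors) in the 3 control and 3 SS tumors. Tnfrsf22 is divided at 62.8% in 5 of 6 tumors, while the division of Eda differs between tumors within each group.

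Downstream of the receptors, a list of 44 genes of TNF receptor signaling held adaptors, caspases, ubiquitin ligases, kinases and NF-kB subunits, of which 37 were tested. In edgeR's test 0 of the 37 had an adjusted p under 0.05, and in DESeq2 0 of the 27 to which it gave one. At an unadjusted p under 0.05 there was 1, or 2.70%, beside 6.36% of all genes. With DESeq2 there were 3 of the 37 (Traf5, Tank and Tab2), beside 688 of the 10902 genes. The 1 gene in edgeR's test was Tank, a TRAF-binding adaptor. Tank was at 162, 113 and 135 CPM in control and at 97.5, 94.0 and 118 CPM in SS tumors. Its groups overlapped, and its log2 fold change was -0.41 (SE 0.16, adjusted p = 0.771 in edgeR's test). Without SS tumor 1, SS tumor 2, control tumor 1 or control tumor 3, Tank had an unadjusted p between 0.0623 and 0.116 in edgeR's test. On the list, 17 genes were lower and 20 higher in SS tumors, with a median log2 fold change of 0.01. Groups did not overlap for 4 of the 37, or 10.8%, beside 12.9% of all genes. These 4, named after their values had been seen, were Traf1 and Rnf31, lower by 0.26 and 0.18 on the log2 scale, and Map3k14 and Rela, higher by 0.27 and 0.19. Among the 37 tested genes, the log2 fold changes farthest above 0 were those of Mlkl at 0.64, Traf5 at 0.62 and Nfkbie at 0.53. Tab2, also named after its value had been seen, was at -0.30. These 4 genes had unadjusted p between 0.0518 and 0.144 in edgeR's test.

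Rnf31 is a ubiquitin ligase of the TNFR1 complex, and it was at 36.0, 37.2 and 34.5 CPM in control and at 34.0, 28.7 and 32.1 CPM in SS tumors. Groups overlapped for the 5 genes that follow. Tradd, the first adaptor of TNFR1, was at 1.73 ± 0.216 CPM (SD, n = 3) in control against 1.73 ± 0.628 CPM (SD, n = 3) in SS-treated tumors. Ripk1, the kinase of the receptor complex, was at 2.45 ± 0.368 CPM (SD, n = 3) and 2.44 ± 0.520 CPM (SD, n = 3). Adam17, the protease that sheds TNF and its receptors, was at 63.2 ± 4.88 CPM (SD, n = 3) and 63.9 ± 1.66 CPM (SD, n = 3). Among targets and brakes of NF-kB, Tnfaip3 was at 10.1 ± 1.55 CPM (SD, n = 3) and 8.88 ± 1.61 CPM (SD, n = 3), and Nfkbia at 408 ± 58.4 CPM (SD, n = 3) and 368 ± 32.4 CPM (SD, n = 3). These 5 genes were chosen from the list after their values had been seen.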

How the data were processed

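RNA of 3 control and 3 SS-treated tumors had been sequenced as stranded, polyadenylated libraries in pairs of 75 nt. Values deposited by the authors are estimated counts for each RefSeq transcript, not normalized, with very low entries removed. The submitters' processing notes name CASAVA 1.8.1, Bowtie2 2.2.5, STAR 2.5.3a and mm10. The counting tool is not given in the sources used here. Transcripts were summed by symbol, symbols stored as dates were restored from the accessions, and sums were rounded. Control and SS were compared with edgeR 4.0.16 in R 4.3.3 (filterByExpr, TMM, quasi-likelihood test, p adjusted by Benjamini-Hochberg across 10902 genes). The SE was obtained as the size of the log2 fold change over the root of F. The fit was tested on simulated data. Totals ranged from 8468948 to 24441553 counts per tumor, and 3 tumors per group limit the precision. The alternatives were other scalings, filters and tools (DESeq2 1.42.0, limma 3.58.1), transcripts, the replicate number as a block, and each tumor left out. Marker scores as covariates were added afterwards. The members, lists and roles were chosen with earlier results of these data known. Values in every tumor are given for members with an unadjusted p under 0.05, for those whose groups do not overlap, for a list of ligand and receptor pairs, and for the 5 with the highest level per length. Outside these rules they are also given for Eda and Tnfsfm13, and the other members are given as counts or ranges. Of the signaling list, genes with an unadjusted p under 0.05 are named. Nothing in the labels says that the tumors were processed in batches.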

Additional observations from a re-analysis of the deposited data

How the results depend on the processing

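Tnfrsf1a stayed lower in SS tumors, with an unadjusted p under 0.05, in all 14 alternative gene fits and in the 2 covariate fits chosen after seeing the data, with a log2 fold change from -0.50 to -0.80, and it was the member counted in every gene fit and in the fit over transcripts. All of these are refits of the same 6 tumors. After adjustment its p was 0.552 to 0.989 in the alternative gene fits with edgeR and limma, and DESeq2 gave none. The other 8 tested members had no unadjusted p under 0.05 under any alternative. Tnfrsf21 and Tnfsfm13 kept their sign throughout, and Eda, Ltb, Tnfrsf12a, Tnfrsf1b, Tnfrsf22 and Tnfsf12 each changed sign with at least 1 tumor left out. The number of members above 0 was 3 of 9, became 9 of 20 with no filter on low counts and 5 of 9 with limma-voom or with the T-cell score as a covariate, and ran from 2 of 10 to 5 of 11 with each tumor left out. The 1 signaling gene at an unadjusted p under 0.05 became 2 with upper-quartile scaling, with the replicate block and with limma-voom, 0 with quantile normalization, 3 with DESeq2 and with the T-cell score, and 0 to 3 with each tumor left out (0 without SS tumor 1 or SS tumor 2, and 3 without control tumor 1). The genes were not always the same, since Tank was not among them with limma-voom (Traf5 and Nfkbie), with the T-cell score or without control tumor 1 (Traf5, Nfkbie and Nfkb1), or without control tumor 3 (Mlkl). Over all genes, the count at an adjusted p under 0.05 was 0 in edgeR and 35 with DESeq2. The cause of these differences was not tested. Tumors with the same number come from different mice, and the correlations of their deviations within groups were 0.116, 0.021 and 0.077, so the numbers were not taken to pair them. With the replicate number as a block, Tnfrsf1a was at -0.68 (unadjusted p = 0.0303 in edgeR's test), and no member's call was altered. The p-values set the difference between groups against the spread between these tumors, and edgeR's estimate of that spread also draws on other genes. The 11 members left out of the test had at most 61 counts each over the 6 tumors, and none had an unadjusted p under 0.05 in any fit that kept it.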
